A study of Mus musculus with 6 samples.

Results

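Krüppel-like factors are zinc-finger transcription factors, and 10 of them are described here in mouse pericytes: Klf2, Klf3, Klf4, Klf5, Klf6, Klf7, Klf9, Klf10, Klf13 and Klf15. They were chosen by gene symbol, with earlier results of these data known. Klf4 and Klf5 were included because both have been linked to the loss of the contractile state in mural cells exposed to PDGF. All 10 were found, each as 1 probe set, among the 20239 genes of the arrays that carry exactly 1 symbol. The samples were 6 arrays of total RNA from isolated pericytes of C57BL/6 mice, 3 from control cultures and 3 from cultures treated with PDGF-BB (platelet-derived growth factor BB, 100 ng/ml), each kept for 5 days. No genetic change is named for either group, and the sources used here give neither the age and sex of the mice nor the number of isolations. The arrays are numbered 1 to 3 in both groups. Nothing says that they came from separate isolations, so the spread behind each p-value may be that of technical repeats.

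Members of this family bind CACCC boxes and GC-rich DNA through zinc fingers at their carboxyl end, which are much alike, while their other parts recruit different activators and repressors. Several respond within hours to growth factors, hormones or blood flow. In vascular smooth muscle cells, mural cells like the pericytes of small vessels, Klf4 is known as a repressor of contractile genes, Klf5 as a factor of the growing, matrix-forming state, and Klf15 as a factor of quiescence. PDGF-BB, the main ligand of the receptor PDGFR-β on mural cells, is the classical agent that moves cultured smooth muscle cells away from the contractile state. The comparison asks how the transcripts of these factors differ after sustained PDGF-BB.

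The 10 chosen Krüppel-like factor transcripts were lower with PDGF-BB or did not pass the test, and none of the 10 was called higher. Of the 7 other Krüppel-like factors measured, 1 was called higher (Klf16) and 2 lower (Klf11 and Klf12). Klf7, Klf2, Klf9, Klf3 and Klf6 fell, by 2.34-fold, 1.73-fold, 1.55-fold, 1.41-fold and 1.23-fold. Klf4, Klf5, Klf10, Klf13 and Klf15 were not called. A gene was called when its adjusted p was under 0.05 in limma, with Benjamini-Hochberg adjustment over all 20239 genes. The method is a linear model that draws each gene's own spread toward a value estimated over all genes. Of all genes 11.4% were called lower and 10.1% higher, against 5 of the 10 members lower and 0 higher, and 0 members were higher at an unadjusted p under 0.05 as well. Those shares include 7626 genes with a mean under the background level, whereas all 10 members lay above it. With genes under the 50th percentile of mean level left out, 1967 were still lower and 1946 higher. The share over genes as well expressed as the members was not counted. The median log2 change of the members was -0.27, and that of all genes was -0.02. As the 10 were chosen with earlier results of these data known, these counts and medians describe the list and do not test it. The number called lower was 3 when control array 1 or 2 was left out, and 2 when PDGF-BB array 1 or 2 was. Klf7 and Klf9 kept their calls whichever array was left out, but Klf9 lost its call when values were set to at least the background level (adjusted p = 0.0628, limma). That floor altered no Klf9 value, the lowest being 11.33, and left its log2 change at -0.63. Its SE rose from 0.12 to 0.14 in that fit, in which 34.7% of genes have no spread.

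Values below are log2 expression values, in which 1 unit is a doubling, and the log2 change is the PDGF-BB mean less the control mean. Levels of different genes are not set against each other, since probes differ in how strongly they bind. All 10 members lay on all 6 arrays above 7.59, a background level taken from 19 markers of lymphocytes, mast cells and red cells. The arrays measure RNA of whole cultures, so fewer cells of a type and less RNA per cell cannot be told apart. The zinc fingers of the family are alike in sequence, and the probes were not checked for signal shared between members.

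Promoter sequences are shown as a description, and their part in the changes was not tested. RefSeq (GRCm38.p6) gave a window upstream of a transcription start for 8 of the 10 members: Klf2, Klf3, Klf4, Klf6, Klf7, Klf9, Klf13 and Klf15. The windows of Klf7 and Klf15 do not lie at the gene's outermost start, unlike the others. The 250 bases before the start are shown for Klf2, Klf3 and Klf9, which fell and whose motifs differ, and for Klf4, the close relative of Klf2 that was not called. Each reads 5′ to 3′ on the gene's strand: Klf2 at chr8:72318812-72319061 (plus), Klf3 at chr5:64803271-64803520 (plus), Klf9 at chr19:23140976-23141225 (plus) and Klf4 at chr4:55532476-55532725 (minus). Capitals mark, on either strand, CACCC, the GC box GGGCGG, the consensus of MEF2 factors and the FoxO core GTAAACA.
Klf2: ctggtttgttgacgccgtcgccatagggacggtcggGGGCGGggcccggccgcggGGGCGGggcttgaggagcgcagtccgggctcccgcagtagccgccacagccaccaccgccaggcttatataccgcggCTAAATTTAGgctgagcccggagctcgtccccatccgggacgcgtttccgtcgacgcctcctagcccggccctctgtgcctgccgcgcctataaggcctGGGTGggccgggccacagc
Klf3: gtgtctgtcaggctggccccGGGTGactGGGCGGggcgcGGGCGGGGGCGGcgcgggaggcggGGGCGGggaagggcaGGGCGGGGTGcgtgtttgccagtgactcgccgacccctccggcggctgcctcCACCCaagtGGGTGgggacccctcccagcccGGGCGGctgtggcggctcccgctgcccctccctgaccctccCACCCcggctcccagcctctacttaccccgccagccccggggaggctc
Klf9: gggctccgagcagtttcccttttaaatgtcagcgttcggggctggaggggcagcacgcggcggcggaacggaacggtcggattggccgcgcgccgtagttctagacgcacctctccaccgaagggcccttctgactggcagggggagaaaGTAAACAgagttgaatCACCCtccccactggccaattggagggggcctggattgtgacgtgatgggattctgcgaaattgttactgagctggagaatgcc
Klf4: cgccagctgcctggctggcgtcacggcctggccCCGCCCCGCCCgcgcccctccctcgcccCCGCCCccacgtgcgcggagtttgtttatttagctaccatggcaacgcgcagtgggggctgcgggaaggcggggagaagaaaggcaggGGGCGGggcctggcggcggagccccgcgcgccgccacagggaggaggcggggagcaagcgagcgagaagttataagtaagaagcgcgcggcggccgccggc

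The Klf2 window held a MEF2 match, CTAAATTTAG, which begins 118 bases before the start. Such a match was found in 2.92% of the 32851 RefSeq windows of this length and in none of the other 7 members' windows. The Klf9 window held a GTAAACA, beginning 100 bases before the start, as did 3.17% of all windows. CACCC was most frequent before Klf3, with 5 matches, 1 of which overlaps a GC box. It occurred in 6 of the 8 members' windows and in 52.0% of all windows. GC boxes occurred in 7 of the 8, with 6 before Klf3 and 4 before Klf4, and in 32.7% of all windows. The windows were rich in G and C, with 59.2% to 78.4% of bases against a median of 52.4% over all windows. None of the 8 held the CArG box, the site of serum response factor, which 1.47% of all windows hold. A match is a description of these letters and does not show binding.

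Klf7, known from neurite growth and as an inhibitor of fat cell formation (Entrez gene 93691), had the largest change of the 10. It measured 11.74, 12.14 and 12.04 on control arrays 1, 2 and 3, and 10.67, 10.70 and 10.88 on the PDGF-BB arrays. The highest PDGF-BB array lay 0.857 units below the lowest control array. The log2 change was -1.23 (SE 0.12, 95% interval -1.50 to -0.95, adjusted p = 0.0014, limma), a fall of 2.34-fold with an interval of 1.93-fold to 2.83-fold. Only 0.83% of all genes had a lower change. The log2 differences between arrays of the same number were -1.07, -1.44 and -1.16.

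**Figure D1:**
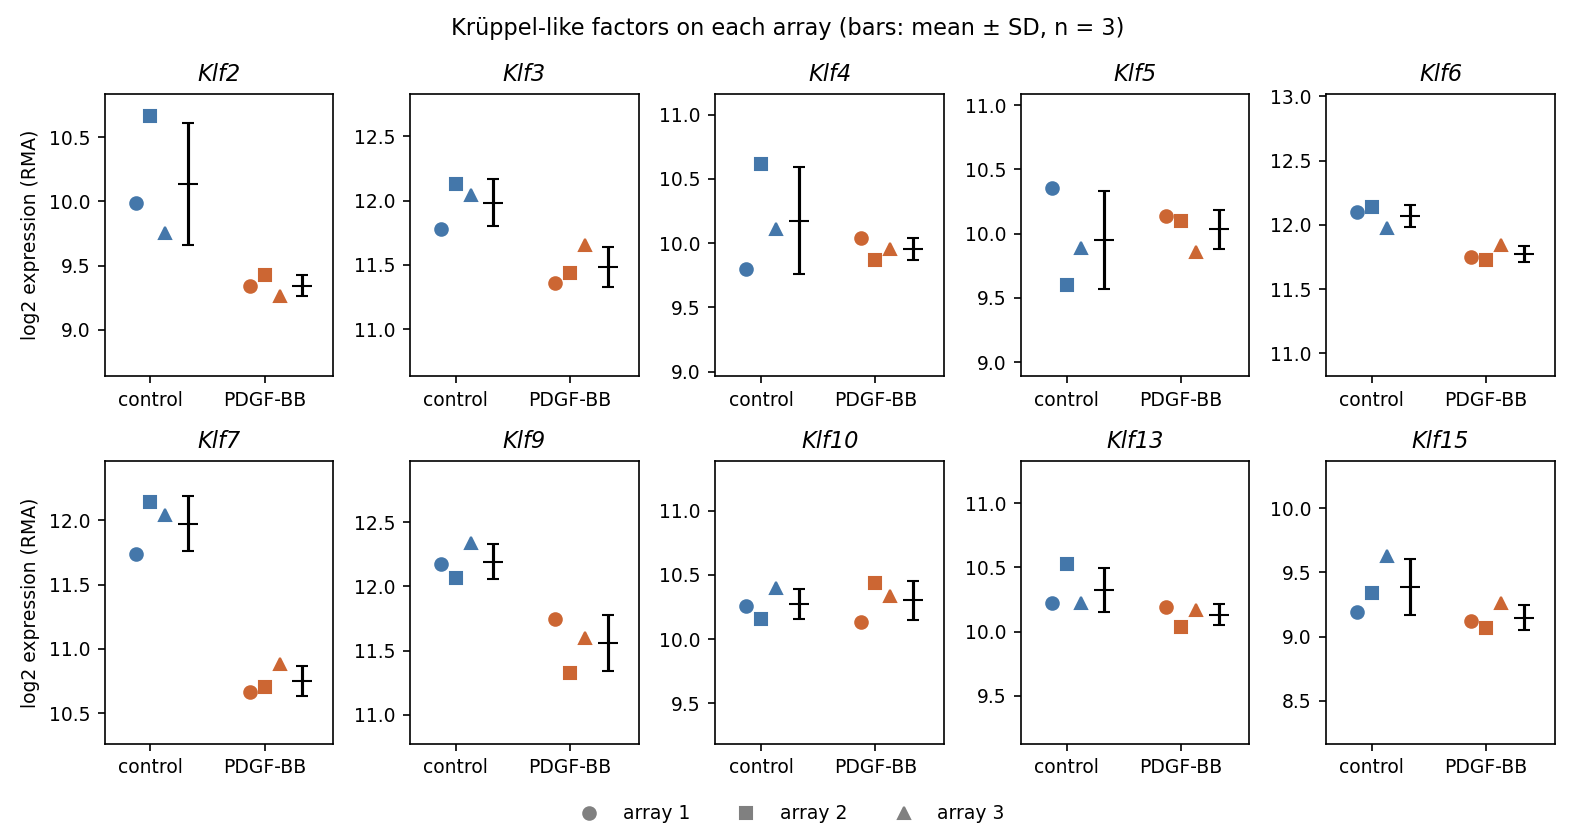
Log2 expression of the 10 Krüppel-like factors on each array, with control arrays in blue and PDGF-BB arrays in orange; marker shape gives the array number and bars give mean ± SD (n = 3). Every panel spans the same number of log2 units. The groups are separated for Klf2, Klf3, Klf6, Klf7, Klf9 and Klf13 and overlap for the other 4.

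Klf2, a flow-responsive factor best known for keeping endothelium quiescent (Entrez gene 16598), measured 9.98, 10.66 and 9.76 on the control arrays and 9.34, 9.43 and 9.26 on the PDGF-BB arrays. The groups did not overlap, but the controls were spread widely, with control array 2 well above the other two. The log2 change was -0.79 (SE 0.21, 95% interval -1.30 to -0.28, adjusted p = 0.040, limma), and 2.21% of all genes had a lower one. The call was lost without control array 1 (adjusted p = 0.0569) and when PDGF-BB array 1 (0.107), 2 (0.0828) or 3 (0.114) was left out. Without control array 2 the log2 change was -0.53 and the call was kept (adjusted p = 0.0187). Genes of the ERK5 kinase and MEF2 pathway, which drives Klf2 in endothelium, had changes between -0.27 and 0.09, and 0 of 8 passed in limma, nor did any have an unadjusted p under 0.05. These are transcript levels of the pathway's own kinases and factors, and its activity was not measured. Endothelial markers, which accompany Klf2 in vessels, were also not called: 0 of 12 in limma, with 1 at an unadjusted p under 0.05. Without PDGF-BB array 3, 1 of them was called higher. Of the 12, 9 had means under 7.59, and their mean level over the list ran from 7.10 to 7.12 on the control arrays and from 7.05 to 7.16 on the PDGF-BB arrays.

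Klf9, a glucocorticoid- and thyroid hormone-inducible factor that restrains division in several cell types (Entrez gene 16601), measured 12.17, 12.07 and 12.34 in control and 11.75, 11.33 and 11.60 with PDGF-BB. All PDGF-BB arrays lay below all control arrays. Its log2 change was -0.63 (SE 0.12, 95% interval -0.92 to -0.34, adjusted p = 0.012, limma). Klf3, a repressor that recruits CtBP corepressors (Entrez gene 16599), measured 11.78, 12.13 and 12.04 in control and 11.36, 11.44 and 11.66 with PDGF-BB. The groups were separated, though PDGF-BB array 3 and control array 1 were close. The log2 change was -0.50 (SE 0.12, 95% interval -0.77 to -0.22, adjusted p = 0.023, limma). Leaving out PDGF-BB array 1 or 2, or control array 2 or 3, gave Klf3 an adjusted p of 0.071 to 0.0794.

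Klf6, a widely expressed factor induced early after tissue injury (Entrez gene 23849), had the smallest change among the called members. It measured 12.10, 12.14 and 11.98 in control and 11.75, 11.72 and 11.84 with PDGF-BB. The groups were separated and each was tight, with SDs of 0.08 and 0.06. Its log2 change was -0.30 (SE 0.07, 95% interval -0.46 to -0.14, adjusted p = 0.021, limma), and 12.1% of all genes had a lower one. Leaving out PDGF-BB array 1 or 2, or control array 1 or 2, gave Klf6 an adjusted p of 0.0534 to 0.076.

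**Figure D2:**
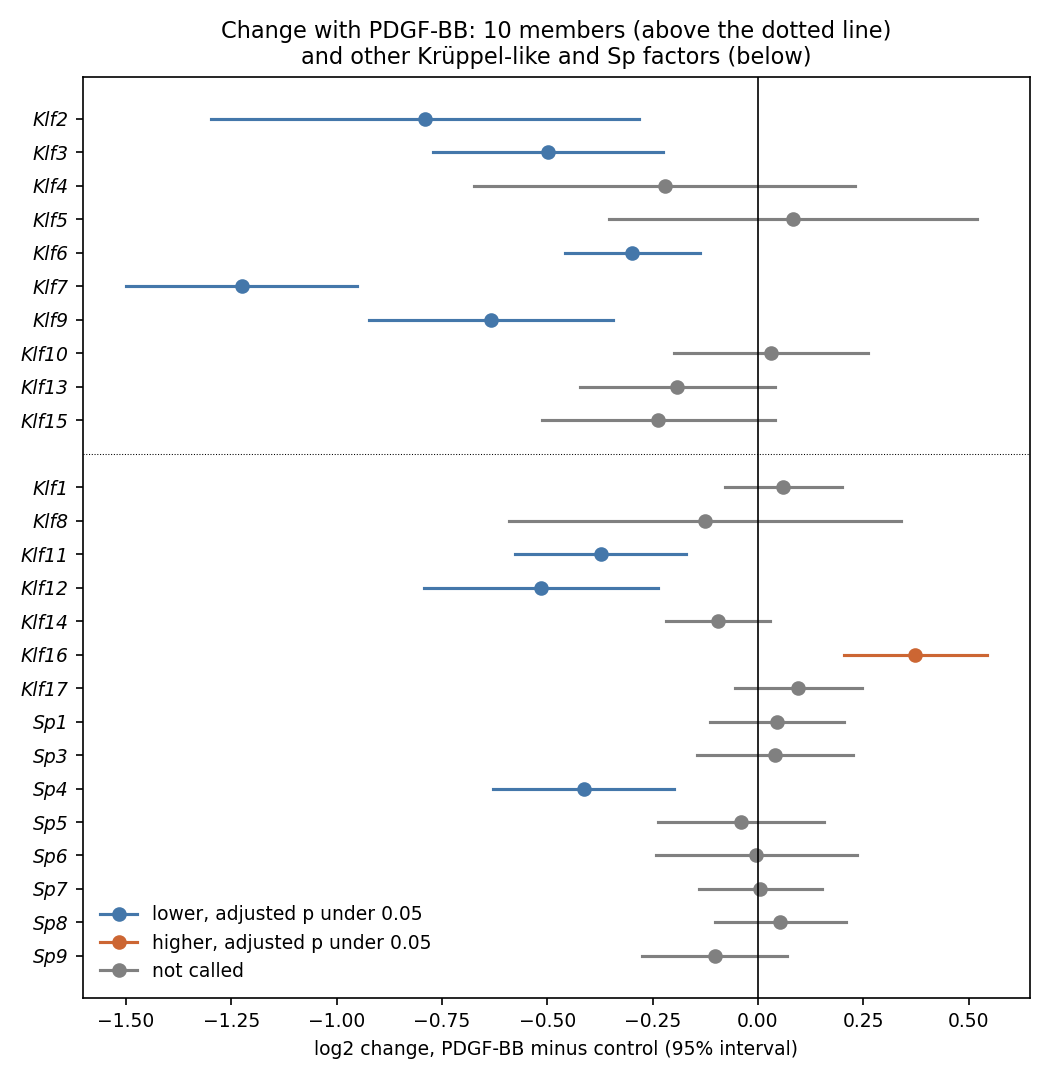
Log2 change with PDGF-BB (x axis, PDGF-BB minus control) with the 95% interval of the limma fit for the 10 members, above the dotted line, and for 15 other Krüppel-like and Sp factors below it. Blue marks genes called lower and orange genes called higher; the intervals of Klf4 and Klf5 span 0 and are wider than those of most other genes shown.

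Klf4, the reported repressor of contractile genes (Entrez gene 16600), measured 9.80, 10.62 and 10.11 in control and 10.04, 9.87 and 9.95 with PDGF-BB. The PDGF-BB arrays all lay inside the range of the controls. The log2 change was -0.22 (SE 0.19, 95% interval -0.67 to 0.23, adjusted p = 0.51, limma). That interval reaches from a fall of 1.59-fold to a rise of 1.17-fold, so changes of either sign within those bounds are not excluded. The SD was 0.41 in control and 0.09 with PDGF-BB. The log2 differences between same-numbered arrays were 0.24, -0.75 and -0.15, and without control array 2 the change was 0.0014.

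Klf5, the reported driver of the growing state (Entrez gene 12224), measured 10.35, 9.60 and 9.89 in control and 10.14, 10.10 and 9.86 with PDGF-BB. Here too the PDGF-BB arrays lay inside the control range. Its log2 change was 0.08 (SE 0.18, 95% interval -0.35 to 0.52, adjusted p = 0.82, limma), and the upper end of the interval is a rise of 1.44-fold. The same-numbered arrays differed by -0.21, 0.50 and -0.03. Control array 2 was the highest control for Klf4 and the lowest for Klf5, and without it the Klf5 change was -0.09. The cultures were sampled at 5 days, so an early and passing change of either factor would not be seen.

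Klf10, the TGF-β-inducible early gene (Entrez gene 21847), measured 10.26, 10.16 and 10.39 in control and 10.14, 10.43 and 10.33 with PDGF-BB. The groups overlapped, and the log2 change was 0.03 (95% interval -0.20 to 0.26, adjusted p = 0.88, limma). Klf13, a factor of lymphocyte chemokine expression and heart development (Entrez gene 50794), measured 10.22, 10.52 and 10.22 in control and 10.19, 10.04 and 10.17 with PDGF-BB. All PDGF-BB arrays were lower, but by as little as 0.03 units between arrays of number 1, and the log2 change of -0.19 was not called (95% interval -0.42 to 0.04, adjusted p = 0.24, limma). Klf15, a factor of amino acid breakdown and of quiescent heart and vessel muscle (Entrez gene 66277), measured 9.19, 9.34 and 9.62 in control and 9.12, 9.07 and 9.26 with PDGF-BB. PDGF-BB array 3 lay above control array 1, and the log2 change was -0.24 (95% interval -0.51 to 0.04, adjusted p = 0.22, limma).

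The 10 members thus separated the groups in 6 cases, all lower with PDGF-BB, and overlapped in 4. Of all genes 20.6% separated the groups in that direction and 16.9% in the other. In 7 members all 3 same-numbered differences were negative, the 6 above and Klf15, as they were in 29.9% of all genes. These shares, too, include the genes with means under the background level. An exact permutation test over 3 against 3 arrays cannot give a two-sided p under 0.1, which is the value it gave for each of the 6. Control array 2 was the highest of the controls for 6 members and the lowest for 3. Control array 1 was the highest for 1 and the lowest for 5, and control array 3 the highest for 3 and the lowest for 2. Every gene has 1 highest and 1 lowest control, and the share over all genes was not counted. These counts therefore do not show that control array 2 is unusual. The SD was larger in control than with PDGF-BB in 8 of the 10 members and in 53.8% of all genes.

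**Figure D3:**
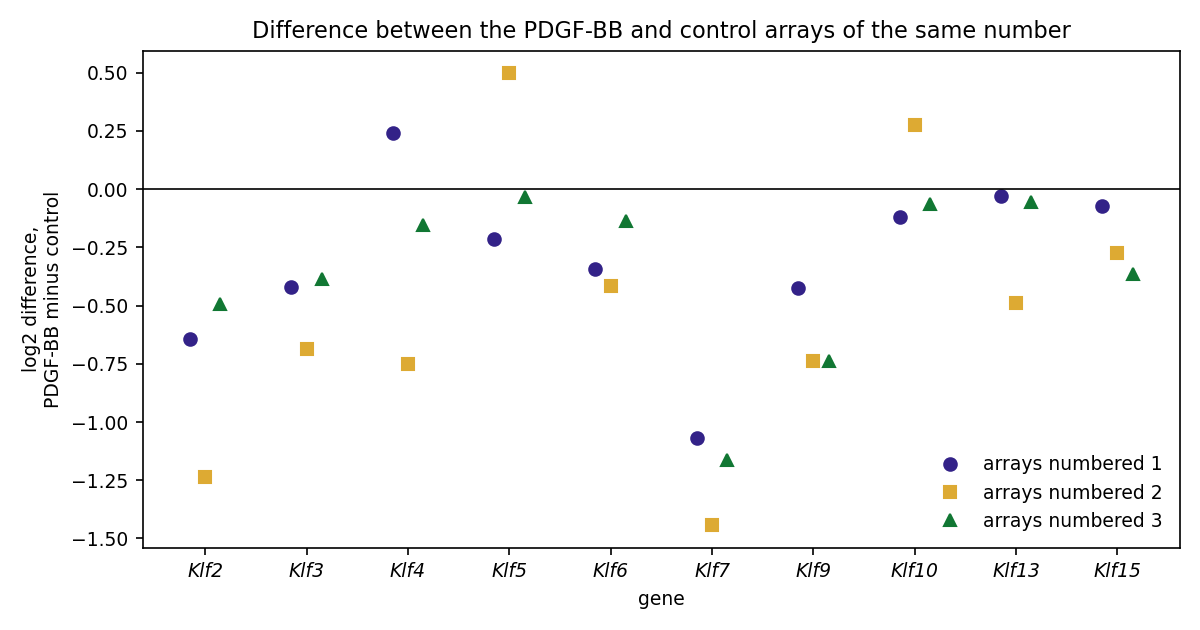
Log2 difference between the PDGF-BB and the control array of the same number for each member (y axis), with 1 marker shape and colour for each number. All 3 differences are negative for 7 members; the differences of number 2 are the most negative for Klf2, Klf3, Klf4, Klf6, Klf7 and Klf13 and the most positive for Klf5 and Klf10.

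Members were also compared in 3 pairs, on the per-array difference between the log2 values of both genes. They were chosen after their values were seen, and no p under 0.1 is possible. The change of Klf2 was lower than that of its relative Klf4 by a log2 difference of -0.57, and the per-array differences of the groups did not overlap (exact two-sided permutation p = 0.1, adjusted over 3 pairs 0.3). Klf4 against Klf5 gave -0.30 (exact p = 0.7) and Klf9 against its relative Klf13 gave -0.44 (exact p = 0.2).

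Among the other 15 measured genes of the family, Klf11, Klf12 and Sp4 fell and Klf16 rose. Klf12, a repressor of the AP-2α gene, measured 9.85, 9.88 and 9.50 in control and 9.29, 9.31 and 9.09 with PDGF-BB (log2 change -0.51, SE 0.12, adjusted p = 0.022, limma). Klf11, a TGF-β-inducible relative of Klf10, measured 10.12, 10.07 and 9.90 against 9.75, 9.53 and 9.69 (log2 change -0.37, SE 0.09, adjusted p = 0.022, limma). Klf16, the only one of the 17 measured Krüppel-like factors called higher, measured 10.15, 10.19 and 10.22 against 10.54, 10.46 and 10.68 (log2 change 0.37, SE 0.07, adjusted p = 0.012, limma). In each of these 3 the groups were separated. The Klf16 call held whichever array was left out, whereas 0 of the 7 other Krüppel-like factors were lower when PDGF-BB array 3 or either of control arrays 1 and 2 was left out, and 1 was when PDGF-BB array 1 or 2 was.

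The Sp factors share the zinc fingers and GC-box binding of the family. Of 8 measured, only Sp4 was called, with 8.85, 8.58 and 8.62 in control and 8.16, 8.31 and 8.34 with PDGF-BB (log2 change -0.41, SE 0.09, adjusted p = 0.019, limma; 0.0647 without PDGF-BB array 1). Sp1 and Sp3, the widely expressed members, had log2 changes of 0.05 (95% interval -0.11 to 0.21) and 0.04 (-0.15 to 0.23). The median log2 change was -0.09 over the 7 other Krüppel-like factors and 0.00 over the Sp factors. Klf1, Klf17, Sp6 and Sp8 lay under the background level on all 6 arrays.

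Lists of genes that these factors are reported to control were written from textbook knowledge. Their counts stand beside 11.4% of all genes called lower and 10.1% called higher. The smooth muscle programme, which Klf4 is reported to repress, fell: 12 of 16 genes were lower and 1 higher, with a median log2 change of -0.61. Acta2, smooth muscle α-actin, had means of 13.76 ± 0.06 without and 12.69 ± 0.56 with the factor (SD, n = 3, adjusted p = 0.024, limma). Tagln, the actin-binding protein SM22α, measured 10.23 ± 0.79 and 8.15 ± 0.35 (adjusted p = 0.0095). The falls with the smallest p were those of Lmod1 and Tpm1 (log2 changes -1.01 and -0.48, adjusted p = 0.0020 and 0.0052, limma). Srf and Mrtfa, the transcription factor of the CArG box and its coactivator, were also among the genes that fell, with log2 changes of -0.50 and -0.76. Myocd, the myocardin coactivator, lay under the background level on all arrays (6.66 ± 0.05 and 6.55 ± 0.08), and Myh11, smooth muscle myosin, close to it (7.69 ± 0.05 and 7.51 ± 0.03, adjusted p = 0.065). The Acta2 call was lost without any 1 control array or without PDGF-BB array 1 (adjusted p = 0.0576 to 0.067), and the only rise of the list, that of Smtn, was lost when any 1 array except control array 1 was left out and under the replicate block, which left 0 higher.

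Of 6 genes that Klf2 and Klf4 are reported to control in endothelium, 3 were lower and 1 higher. Thbd, the anticoagulant receptor thrombomodulin and a reported target that Klf2 raises, had a log2 change of -1.06, and Vcam1, an adhesion molecule that Klf2 is reported to restrain, one of -0.88. Edn1, the vasoconstrictor endothelin 1, which Klf2 is reported to restrain, measured 8.97 ± 0.52 in control and lay under the background level with PDGF-BB (6.81 ± 0.11). Sele, E-selectin, was higher (log2 change 0.71), from a control mean under the background level. Of 6 reported Klf5 targets, Ccnd1, the G1 cyclin D1 (log2 change 0.76), and Birc5, survivin (1.11), rose, and Pdgfa, the PDGF A chain, fell (-0.50). Without any 1 PDGF-BB array 1 of them rose, as the Birc5 call was lost (adjusted p = 0.0658 to 0.0708). The 5 reported Klf15 targets had log2 changes between -0.07 and -0.02, and 0 passed in limma or had an unadjusted p under 0.05. Of 9 genes of the fat cell cascade, in which Klf2 and Klf7 are known as brakes and Klf5 and Klf15 as promoters, 3 rose and 0 fell, and 0 were lower at an unadjusted p under 0.05. They were Pparg, the master regulator (log2 change 0.98), Fabp4 (3.02) and Lpl, lipoprotein lipase (1.35), while Adipoq, adiponectin, was under the background level (log2 change 0.13, adjusted p = 0.42). Of 6 partners of Klf4 in pluripotency, Myc rose (log2 change 0.76) and the other 5 were not called.

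**Figure D4:**
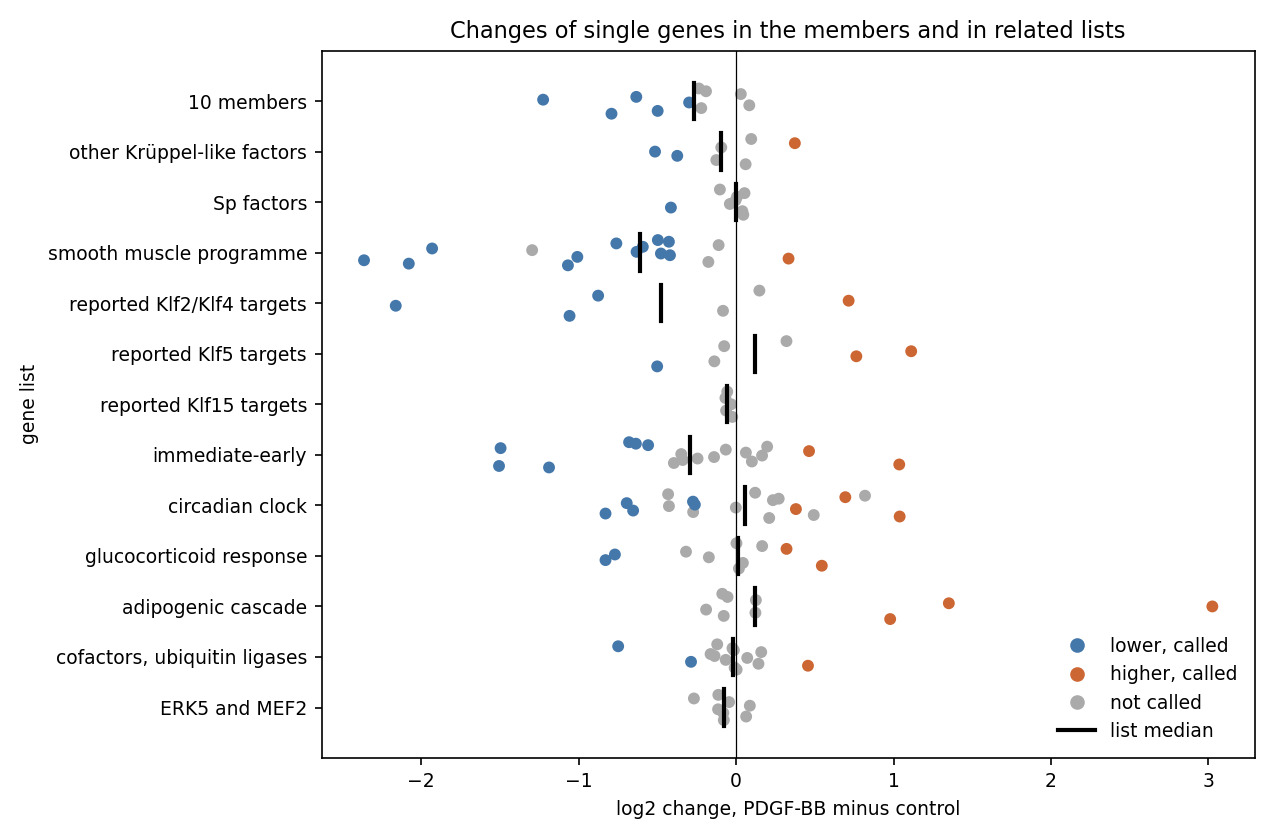
Log2 change of each measured gene (x axis) in the 10 members and in 12 related lists (rows), with genes called lower in blue, called higher in orange and not called in grey; black bars are list medians. The members' median lies at -0.27, between those of the smooth muscle programme (-0.61) and of all genes (-0.02).

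Several members are themselves early-response, hormone-inducible or clock-controlled genes. Lists of such genes went both ways, as did all genes, of which 11.4% were called lower and 10.1% higher. Of 18 immediate-early genes 6 fell and 2 rose, with a median log2 change of -0.29. Nr4a1, an orphan nuclear receptor, and Zfp36, an mRNA decay factor, fell (log2 changes -1.50 and -0.68), and Fosl1, the AP-1 subunit Fra-1, and Ier3 rose (1.04 and 0.46). Of 18 genes of the circadian clock, which drives Klf9, Klf10 and Klf15 in many tissues, 5 fell and 3 rose. Per1 and Per3 fell (-0.83 and -0.65), and Arntl, which encodes BMAL1, and Ciart rose (1.04 and 0.69). Under the replicate block (the array number as a factor of the fit) 5 clock genes rose, and 3 fell when PDGF-BB array 1 or either of control arrays 2 and 3 was left out. Of 10 glucocorticoid response genes 2 fell, Per1 and Dusp1 (-0.83 and -0.77), and 2 rose, Fkbp5 and Errfi1 (0.54 and 0.32). No such gene rose when PDGF-BB array 2 or 3 or control array 2 was left out, and 1 rose when PDGF-BB array 1 or control array 3 was. Nr3c1, the glucocorticoid receptor, had a log2 change of 0.02 (95% interval -0.14 to 0.18).

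Of 14 cofactors and ubiquitin ligases of the family, 2 fell and 1 rose, beside 11.4% and 10.1% of all genes. Ctbp1 and Ctbp2, the corepressors of Klf3, had log2 changes of 0.00 and -0.01. Fbxo32, the ubiquitin ligase atrogin-1, which is reported to target Klf4, fell (-0.75), and Fhl3, a LIM-domain partner of Klf3, rose (0.46). Sin3b, a corepressor scaffold, also fell (-0.29, adjusted p = 0.049), a call lost without any 1 array except PDGF-BB array 2, which left 1 lower. Fbxw7 and Wwp1, ligases reported to target Klf5, had log2 changes of -0.02 and -0.01.

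By Pearson correlation over the 6 arrays, the genes most like Klf7 among 12138 named genes above the background level were Cdo1, Herpud2, Rab32, Swap70 and Klhdc8b (r = 0.998 to 0.999), with log2 changes between -1.63 and -0.38. The most opposite were Nfatc2ip, Cox18, Coq7, Eif6 and Creb5 (r = -0.998 to -0.997), with log2 changes between 0.40 and 1.24. Such values are common here, since the 6 points fall into the same 2 groups for every changed gene: 894 genes had r over 0.95 with Klf7 and 654 under -0.95. The correlation is a measure of likeness and was not tested.

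The pericyte label was set against markers. The control mean of Pdgfrb was 12.98 ± 0.11 and its PDGF-BB mean 12.85 ± 0.09 (SD, n = 3), and Cspg4, Anpep and Cd248 were also above background, but Higd1b, Abcc9 and Des had means under it and Rgs5 lay close to it. Of 12 pericyte markers 8 had means above the background level. Anpep rose (log2 change 0.87, adjusted p = 0.0028, limma) and Cd248 fell (-0.33, adjusted p = 0.040), and the other 10 were not called. Under the replicate block 2 pericyte markers rose and 2 fell, with Cspg4 (0.91, adjusted p = 0.0154) and Mcam (-0.52, adjusted p = 0.023) called as well. Without PDGF-BB array 3 the number that rose was 2, and none fell when PDGF-BB array 2 or 3 or either of control arrays 2 and 3 was left out. Of 12 macrophage markers 2 rose (Mpeg1 and Cd14) and 2 fell (Cd68 and Lyz2), or 1 fell without PDGF-BB array 1 or 2. Lyz2 lay under the background level in both groups (means 6.29 and 5.80), and the control mean of Mpeg1 (6.24) was under it too. Ptprc, Adgre1 and Csf1r lay under the background level; the list's mean ran from 6.97 to 7.03 in control and from 6.99 to 7.17 with PDGF-BB. Endothelial markers gave 0 calls of 12 in limma, 1 higher at an unadjusted p under 0.05, and 1 higher call without PDGF-BB array 3. Epithelial markers gave 0 calls of 8 in limma and 0 at an unadjusted p under 0.05, and of 10 neural and glial markers Mbp fell, or none without control array 1 or 2 or when PDGF-BB array 2 or 3 was left out. Under the replicate block 2 neural and glial markers fell, with Tubb3 called as well (-0.41, adjusted p = 0.036), though both its means lay under the background level. The part of other cell types in the changes of the Krüppel-like factors was not tested. Array medians ran from 8.43 to 8.46, and arrays correlated across genes at 0.994 to 0.996 within a group and at 0.973 to 0.986 between groups.

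The calls of the 5 members that fell differed in how much they depended on single settings. Klf7 passed in all 14 alternative analyses, with adjusted p between 9.0e-04 and 0.0187, and Klf9 in 13 of 14. Klf6 passed in 10 of 14, and Klf2 and Klf3 in 9 of 14 each. Under the replicate block all 5 kept their calls and no other member gained one.

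**Figure D5:**
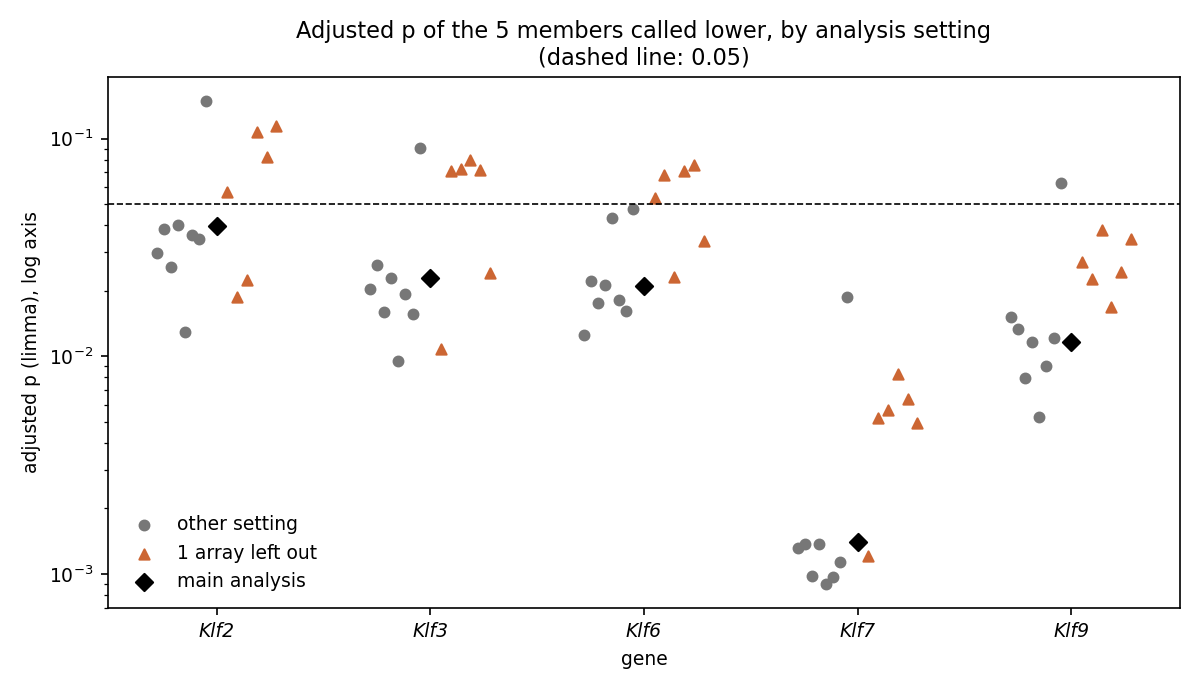
Adjusted p (y axis, log scale) of the 5 members called lower, for the main analysis (black diamonds), 8 alternatives that keep all arrays (grey circles) and 6 that leave out 1 array (orange triangles); the dashed line is 0.05. The markers of Klf7 all lie below the line, while those of Klf2, Klf3 and Klf6 lie on both sides of it.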

How the data were processed

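The deposited table holds log2 expression values of 21225 probe sets on 6 one-colour arrays of biotin-labelled RNA. The authors made these log2 values with RMA, per the submitters' processing notes, which corrects background, equalises the distributions of the arrays and summarises each probe set; the sources used here give no software version, probe set definition or filter. Equalised distributions hide any shift common to all genes. GEO's platform annotation gave 20239 probe sets 1 symbol and none several; 986 are unnamed here. Groups came from the titles. limma (version 3.58.1, R 4.3.3; lmFit and eBayes) was fitted to the 6 arrays by group, unfiltered and two-sided, after being tested on simulated data. Arrays give no read depth, and 3 per group limit the precision. The background level is the 90th percentile of mean signal of 19 markers taken as absent.

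Members and lists were chosen with earlier results of these data known. Named are all members, called family members, Acta2, Tagln, Myh11 and Myocd, of each list up to 4 called genes by p (2 per direction), and the 5 genes most like and most unlike the most changed member. Srf, Mrtfa, Thbd, Adipoq, Nr3c1, Ctbp1, Ctbp2, Fbxw7, Wwp1, the uncalled family members and the uncalled cell type markers were named after their values were seen. Same-numbered arrays deviated together across genes (r = 0.25, 0.32 and 0.25, against -0.28 to 0.01 in other pairings). The numbers were therefore used as pairs in the same-numbered differences and in the replicate block. The main fit, which gave the calls, SEs and intervals, was by group alone and did not use them. No array copied another: the median absolute difference within groups was 0.0896 to 0.105. Promoters came from RefSeq, GRCm38.p6. Alternatives were repeated quantile normalization, median centring, a filter at the 50th percentile, unnamed probe sets, the replicate block, a variance trend, array weights, a floor at background, and leaving out each array.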

Additional observations from a re-analysis of the deposited data

How the results depend on the processing

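No member was called higher, and none of the called members changed sign, in any of the 14 alternatives. The replicate block changed no call of the 10 members, with 5 lower and 0 higher. It changed the list counts given above and no other by over 1.5 times among the family, the gene lists and the cell type markers, where it gave 2 pericyte markers higher, 2 lower and 2 neural and glial markers lower. With values set to at least the background level, 2 members were called lower (Klf6 and Klf7). The log2 changes of Klf2, Klf3 and Klf9 did not move (-0.79, -0.50 and -0.63), while their adjusted p rose to 0.149, 0.0908 and 0.0628 (limma). In that setting 1140 of all genes were higher and 1298 lower, 34.7% of genes have no spread, and the prior degrees of freedom of the fit fell from 3.02 to 0.344. It also left 0 other Krüppel-like and 0 Sp factors lower, 6 smooth muscle genes and 2 clock genes lower, 0 smooth muscle genes higher, and 1 gene higher among the Klf5 targets, the immediate-early, glucocorticoid and fat cell lists, with 0 of the Klf2 and Klf4 targets and of the pluripotency partners higher. Leaving out 1 array gave 2 to 4 members lower, 1420 to 2031 of all genes higher and 1514 to 2188 lower. The log2 change then ran from -0.41 to 0.0014 for Klf4, from -0.0896 to 0.29 for Klf5 and from -0.0363 to 0.11 for Klf10 (-0.0251 without control array 2), turning sign without control array 2 in each and without PDGF-BB array 2 for Klf10. Repeated quantile normalization left 0 smooth muscle genes higher, median centring, a variance trend and array weights left 1 cofactor lower, and the filter removed the rise among Klf2 and Klf4 targets. The same floor gave 1 macrophage marker higher and 0 lower, and 0 pericyte and 0 neural and glial markers lower. The filter gave 1 macrophage marker higher, 1 lower, 0 neural and glial markers lower and 2 pericyte markers higher, as did array weights for the last. Scaling alternatives moved the median of all genes from -0.0203 to -0.0052 or -0.0058. The numbers of arrays limit what the uncalled members can show.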
